A study of Mus musculus with 12 samples.

Results

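Cybb, Cyba, Ncf1, Ncf4 and Rac2 encode subunits of the phagocyte NADPH oxidase and its small GTPase. They were read in lineage-negative bone marrow cells of C57BL/6 mice as the rows of the count table whose Ensembl identifiers, without their version, map to these 5 symbols. All 5 were found, of 31060 genes in the table, and all 5 passed the filter on low counts. The study measured RNA by sequencing in 4 genotypes that cross loss of 1 copy of Tet2, an enzyme that oxidises methylated cytosine in DNA, with Akita, a dominant allele of Ins2 (insulin) that makes mice hyperglycaemic. Its title names hyperglycaemic stress and myeloid neoplasms as the question. The groups were WT (n = 3 libraries), Tet2+/- (n = 3), Ins2Akita/+ (n = 2) and Tet2+/-;Ins2Akita/+ (n = 3), here called the double mutant. Age, sex, how the Tet2 allele was disrupted, how long the mice were hyperglycaemic and the antibodies used to remove lineage-positive cells are not stated by the labels. Nor do the labels tell whether replicates are different animals. The p-values then reflect only how far these libraries spread, which may be technical.

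The oxidase moves electrons from NADPH across a membrane onto oxygen and makes superoxide, which neutrophils and macrophages release into the vacuole around a swallowed microbe. Cybb and Cyba form the membrane-bound flavocytochrome b. Ncf1 and Ncf4 wait in the cytosol and join it when the cell is stimulated, together with Rac2 in its GTP-bound form. Loss of function of several of these genes causes chronic granulomatous disease. Transcripts of the complex build up as myeloid progenitors mature into neutrophils and monocytes.

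Total counts ran from 14814409 to 22600405 per library, and the 5 genes together took 0.0526% to 0.407% of them. Levels are given in CPM, counts scaled to library size with TMM factors. Tet2, read as a check of the labels, stood at 45.1 to 128 CPM in WT, at 18.5 to 19.3 CPM in the libraries labelled Tet2+/-, at 107 to 131 CPM in Ins2Akita/+ and at 34.2 to 108 CPM in those labelled double mutant. The double mutant range overlapped WT and not Tet2+/-. By replicate number, Tet2 was lower in the double mutant than in WT, at 66.5 against 91.2, 108 against 128 and 34.2 against 45.1 CPM. Its group mean was 0.79 of that of WT in the double mutant (log2 difference -0.34, SE 0.43) and 0.21 of it in Tet2+/-. The Tet2 level thus did not bear out the Tet2 label of the double mutant libraries as it did that of Tet2+/-. Every direction below is one between libraries carrying these labels. Replicate 3 of WT, Tet2+/- and the double mutant differed from the other replicates of its group, with 3.43%, 4.46% and 9.76% of counts in mitochondrially encoded genes against 1.36% to 1.94% in the 8 others. Results are therefore given with and without these 3 libraries, called the libraries numbered 3. The stem and progenitor list (10 genes, Kit and Cd34 among them) summed to 315 to 747 CPM over all libraries with no gene at 0. Genes of maturing neutrophils, which a lineage depletion is meant to reduce, summed to 2247 to 74801 CPM.

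Cybb encodes the catalytic subunit, which carries the haem groups and the binding sites for flavin and NADPH (ENSMUSG00000015340.10, GRCm38 chromosome X, 9435252 to 9487771, minus strand, protein coding). It was measured at 418, 529 and 58.9 CPM in WT replicates 1 to 3 and at 723, 470 and 56.8 CPM in Tet2+/-. It was at 666 and 350 CPM in Ins2Akita/+ and at 1021, 1343 and 764 CPM in the double mutant. All 3 double mutant libraries lay above the 8 others, although the gap from the lowest of them (764 CPM) to the highest other library (Tet2+/- replicate 1, 723 CPM) was small. The means were 335 ± 246 CPM (SD, n = 3) in WT and 1043 ± 290 CPM (SD, n = 3) in the double mutant, a ratio of 3.11. The log2 difference of 1.64 (SE 0.88) missed the threshold of the edgeR quasi-likelihood test, an adjusted p of 0.05 across the genes tested (adjusted p = 0.692).

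Cyba encodes the small membrane partner of the catalytic subunit and carries the docking site for the cytosolic subunits (ENSMUSG00000006519.10, chromosome 8, 122424776 to 122432930, minus strand, protein coding). It was at 210, 218 and 71.9 CPM in WT, at 219, 286 and 46.3 CPM in Tet2+/-, at 246 and 157 CPM in Ins2Akita/+ and at 298, 402 and 305 CPM in the double mutant. The double mutant libraries were again the highest 3, by 298 against 286 CPM at the boundary. The means were 167 ± 82 CPM (SD, n = 3) in WT and 335 ± 58.4 CPM (SD, n = 3) in the double mutant, a ratio of 2.01 (log2 difference 1.01, SE 0.60, edgeR adjusted p = 0.747). Without WT replicate 3 that log2 difference was 0.65.

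Ncf1 encodes the organiser, the cytosolic subunit whose phosphorylation starts assembly (ENSMUSG00000015950.13, chromosome 5, 134220053 to 134229625, minus strand, protein coding). It was at 334, 394 and 122 CPM in WT and at 386, 257 and 67.3 CPM in Tet2+/-. It was at 480 and 296 CPM in Ins2Akita/+ and at 689, 1048 and 604 CPM in the double mutant. The groups did not overlap, with 604 CPM in the lowest double mutant library and 480 CPM in the highest other one. The means were 284 ± 143 CPM (SD, n = 3) in WT, 237 ± 160 CPM (SD, n = 3) in Tet2+/- and 780 ± 235 CPM (SD, n = 3) in the double mutant. Of its exon bases, 408 (11.1%) are shared with Gtf2ird2 on the opposite strand. Whether counting used strand is not stated, so reads there cannot be assigned to either gene. Gtf2ird2 itself had at most 390 counts in a library.

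Ncf4 encodes a cytosolic subunit that binds phosphatidylinositol 3-phosphate on the phagosome (ENSMUSG00000071715.11, chromosome 15, 78244801 to 78262580, plus strand, protein coding). Its levels were 148, 160 and 28.1 CPM in WT, 224.5, 259 and 36.9 CPM in Tet2+/-, 185 and 115 CPM in Ins2Akita/+ and 273, 536 and 317 CPM in the double mutant. It had the highest ratio of double mutant to WT means of the 5 genes, 3.35 (375 ± 141 against 112 ± 72.9 CPM, SD, n = 3 each). At the boundary 273 CPM in double mutant replicate 1 stood against 259 CPM in Tet2+/- replicate 2.

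Rac2, the small GTPase of blood cells that switches the assembled oxidase on (ENSMUSG00000033220.6, chromosome 15, 78559167 to 78572783, minus strand, protein coding), also acts in cell movement. It was at 666, 719 and 396 CPM in WT, at 801, 802 and 312 CPM in Tet2+/-, at 844 and 575 CPM in Ins2Akita/+ and at 929, 1248 and 1113 CPM in the double mutant. All double mutant libraries were above the 8 others, with 929 CPM against 844 CPM at the boundary. The means of 594 ± 173 CPM (SD, n = 3) in WT and 1097 ± 160 CPM (SD, n = 3) in the double mutant gave a ratio of 1.85, the lowest of the 5 genes.

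**Figure D1:**
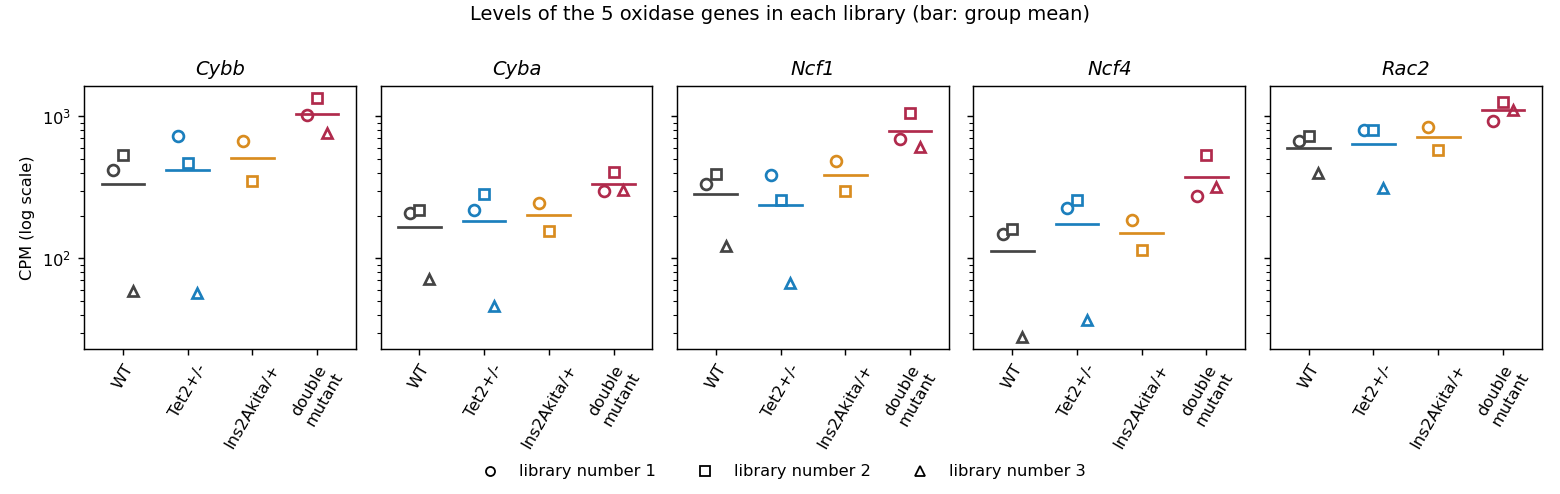
CPM (log axis) of each of the 5 genes in every library, by genotype, with symbols for the library number and a bar at the group mean. The double mutant libraries are the highest 3 in every panel, and the WT and Tet2+/- libraries numbered 3 are the lowest 2 in every panel.

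The promoters are shown as a description, and any link between them and the levels was not tested. RefSeq promoter sequences (GRCm38.p6) were matched for 3 of the 5 genes, and Ncf4 and Rac2 are named only. The 250 bases before the RefSeq start are printed from 5′ to 3′ on the strand of the gene, with motif matches in capitals. They lie at chr5:134229626-134229875 for Ncf1, chr8:122432941-122433190 for Cyba and chrX:9469325-9469574 for Cybb, all on the minus strand, and the Cybb start lies inside the longer annotated gene span given above.
Ncf1: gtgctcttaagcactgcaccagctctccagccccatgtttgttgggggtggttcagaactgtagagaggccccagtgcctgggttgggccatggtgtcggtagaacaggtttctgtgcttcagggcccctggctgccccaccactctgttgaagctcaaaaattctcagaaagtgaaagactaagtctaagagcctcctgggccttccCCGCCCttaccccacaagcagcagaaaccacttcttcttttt
Cyba: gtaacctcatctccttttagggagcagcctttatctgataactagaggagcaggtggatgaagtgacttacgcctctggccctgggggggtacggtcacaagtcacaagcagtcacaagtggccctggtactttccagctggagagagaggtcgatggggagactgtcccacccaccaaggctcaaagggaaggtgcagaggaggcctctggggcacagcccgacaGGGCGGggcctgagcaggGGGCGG
Cybb: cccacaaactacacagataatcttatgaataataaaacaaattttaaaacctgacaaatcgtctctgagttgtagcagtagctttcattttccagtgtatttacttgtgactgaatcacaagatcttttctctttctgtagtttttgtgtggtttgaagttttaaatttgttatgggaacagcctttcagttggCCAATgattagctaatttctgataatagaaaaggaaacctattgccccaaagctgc
A stretch of 30 bases at the Cybb start (chrX:9469298-9469327, minus strand) holds a further match.
Cybb start: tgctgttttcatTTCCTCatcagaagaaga
Searched on both strands were the CCAAT box (CCAAT), the GC box (GGGCGG) and the core of sites bound by PU.1, an ETS factor of myeloid cells (GAGGAA), none of which overlaps another. Cybb had CCAAT 56 bases before the start and TTCCTC, which is GAGGAA on the opposite strand, from position 10 after it. Cyba had GGGCGG 24 and 6 bases before the start, and Ncf1 had CCGCCC, the GC box on the opposite strand, 42 bases before it. Matches of this kind were common: among 32841 promoters, 33.9% held CCAAT, 32.7% GGGCGG and 23.3% GAGGAA in the 250 bases before the start. In the 300-base window that adds the first 50 bases of the transcript, the shares were 37.4%, 35.7% and 28.3%. The matches describe letters and not bound sites.

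Across all 11 libraries, the highest level was 23.6 times the lowest for Cybb, 19.1 for Ncf4, 15.6 for Ncf1, 8.68 for Cyba and 4.01 for Rac2. The highest library was double mutant replicate 2 for each of the 5 genes. The lowest was Tet2+/- replicate 3 for Cybb, Cyba, Ncf1 and Rac2 and WT replicate 3 for Ncf4. The coefficient of variation within a group was 29.2% to 73.3% in WT and 44.3% to 80.7% in Tet2+/-, and 14.6% to 37.5% in the double mutant. Much of the spread in WT and Tet2+/- lay in the library numbered 3, which no Ins2Akita/+ library matches in number.

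Compared per kilobase of exon, which puts genes of different length on 1 scale, the mean WT levels ran from Rac2 (191 CPM per kb) and Cyba (160) over Ncf1 (77.4) and Cybb (57.7) to Ncf4 (55.5). In the double mutant the mean levels were 353 CPM per kb for Rac2, 322 for Cyba, 213 for Ncf1, 186 for Ncf4 and 180 for Cybb. The mean ± SD ranges of neighbours in these orders overlapped, but that spread lies between libraries while the genes share each library. Within libraries Cyba was above Ncf1 in every one, and Rac2 was above Cyba in all but Tet2+/- replicate 2 (258 against 275 CPM per kb). Between genotypes, Cybb, Cyba and Rac2 had the order WT, Tet2+/-, Ins2Akita/+ and double mutant by mean. For Ncf1 the order began with Tet2+/-, and for Ncf4 it was WT, Ins2Akita/+, Tet2+/- and double mutant. The first 3 groups overlapped for each gene, so no order among them stands beyond the spread.

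**Figure D2:**
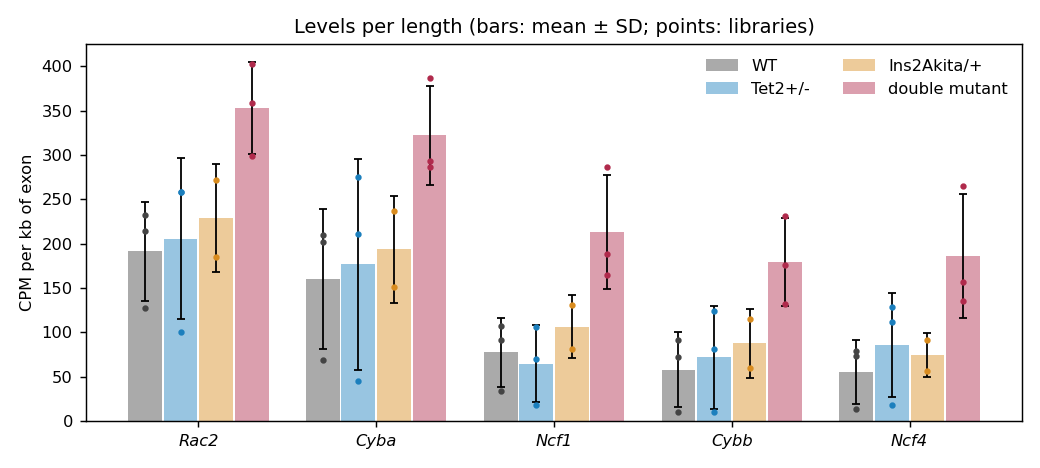
Mean CPM per kb of exon ± SD (bars from 0) by genotype for the 5 genes, with a point for each library. The double mutant bar is the highest for each gene, from 353 CPM per kb for Rac2 to 180 for Cybb.

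The double mutant libraries lay above all 8 others for 5 of the 5 genes, as they did for 787 of the 15630 genes tested, or 5.04%. For these 5 genes it follows that the double mutant also lay above the others in every smaller set of these libraries. Such sets therefore add no support. The shares of all genes without overlap were 15.2% with the libraries numbered 3 left out. They were 9.55% against WT alone, 8.48% against Tet2+/- and 16.6% against Ins2Akita/+. For Tet2+/- against WT 0 of 5 genes had every library above WT (2.07% of all genes), and for Ins2Akita/+ against WT 0 of 5 did (4.78%).

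With all 11 libraries no member passed the edgeR test in any of 6 comparisons. In the double mutant against WT 0 of 5 genes were called, where 0.0448% of all genes tested were called, a background so low that calls were rare for any gene. At an unadjusted p under 0.05, 3 of the 5 (Ncf1, Ncf4 and Rac2) were higher in the double mutant, against 5.12% of all genes. With the replicate number as a block the count was 5 of 5 (11% of all genes higher), and without the libraries numbered 3 it was 5 of 5 (10.4%). DESeq2 called 0 of 5 as well, at a background of 2.25%, and had 4 of 5 at an unadjusted p under 0.05, with Cybb added. The log2 differences were 1.46 for Ncf1 (SE 0.61, edgeR adjusted p = 0.509), 1.74 for Ncf4 (SE 0.75, adjusted p = 0.537) and 0.89 for Rac2 (SE 0.38, adjusted p = 0.528). The median of the 5 differences was 1.46, and that of all genes tested was -0.05. All 5 were above 0, as were 44.1% of all genes. The differences and their SEs were smaller without the libraries numbered 3, at 1.32 for Cybb (SE 0.33), 0.71 for Cyba (SE 0.24), 1.25 for Ncf1 (SE 0.30), 1.39 for Ncf4 (SE 0.33) and 0.65 for Rac2 (SE 0.21). Their edgeR adjusted p ran from 0.0611 for Ncf4 to 0.149 for Cyba. With the block they ran from 0.97 for Rac2 to 2.26 for Cybb, with edgeR adjusted p from 0.0632 to 0.164.

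Against Tet2+/- the double mutant asked what the Ins2Akita/+ label adds to the Tet2+/- label. Here 0 of 5 genes were called by edgeR (background 0.262%), and 1 of 5, Ncf1, had an unadjusted p under 0.05 (5.9% of all genes were higher at that level). That count was 5 of 5 with the replicate block (13.4% of all genes) and 2 of 5, Cybb and Ncf1, without the libraries numbered 3 (13.4%). DESeq2 called 0 of 5 (background 2.85%). For Ncf1 the log2 difference was 1.72 (SE 0.61, edgeR adjusted p = 0.331). Ncf1 rose in the double mutant in both fits that treated the libraries numbered 3 differently. With the replicate number as a block it had a log2 difference of 2.04 (SE 0.39, edgeR adjusted p = 0.0288), where 2.83% of all genes were called higher. Without the libraries numbered 3 it had 1.43 (SE 0.31, edgeR adjusted p = 0.0301), where 3.88% of all genes were called higher. Over all 16 alternatives its adjusted p ran from 0.0288 to 0.781. No other member was called in either of these fits. In the other 5 comparisons the block called 0 of 5 members, with backgrounds of 1.63% against WT, 0.115% against Ins2Akita/+, 0.0192% for the interaction described below, 0.0512% for Tet2+/- against WT and 0% for Ins2Akita/+ against WT. Leaving out the libraries numbered 3 also called 0 of 5 in these, with backgrounds of 3.44%, 2.89%, 0.0464%, 0.146% and 0% in the same order.

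The other 4 genes had log2 differences between double mutant and Tet2+/- of 1.32 for Cybb (SE 0.88), 0.87 for Cyba (SE 0.60), 1.11 for Ncf4 (SE 0.74) and 0.78 for Rac2 (SE 0.38), with edgeR adjusted p from 0.489 to 0.612. These leaned on Tet2+/- replicate 3. Without that library alone they were 0.81, 0.41, 0.64 and 0.45, and without all libraries numbered 3 they were 0.99, 0.47, 0.74 and 0.44. For Ncf1 the values with single libraries left out were 1.28 to 2.26.

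Against Ins2Akita/+, the comparison that asks what the Tet2+/- label adds to the Ins2Akita/+ label, 0 of 5 genes were called by edgeR (background 0.0384%) and 0 had an unadjusted p under 0.05 (6.6% of all genes). That count was 5 of 5 without the libraries numbered 3 (10.8% of all genes higher). It was 5 of 5 with the replicate block (8.15%), which the Ins2Akita/+ libraries entered without meeting the rule for paired numbers. The block takes 1 shift per number as the same in every group. For Cybb, number 3 lay at log2 -2.99, -3.36 and -0.62 from numbers 1 and 2 in WT, Tet2+/- and the double mutant. Block results in every comparison share this limit. No Ins2Akita/+ library is numbered 3, so here the shift came from the other groups. DESeq2 called 0 of 5 (background 1.11%). The log2 differences ran from 0.63 for Rac2 (SE 0.43) to 1.32 for Ncf4 (SE 0.85), with edgeR adjusted p from 0.916 to 0.948. They were, without the libraries numbered 3, 1.22 for Cybb, 0.80 for Cyba, 1.16 for Ncf1, 1.43 for Ncf4 and 0.62 for Rac2, with SEs of 0.21 to 0.33 and edgeR adjusted p from 0.0637 to 0.155. The 2 Ins2Akita/+ libraries differed from each other for each gene, with replicate 1 the higher. Cybb had a log2 difference of 1.60 without replicate 1 and of 0.64 without replicate 2, and Cyba had 1.12 and 0.44. Rac2 had 0.95 and 0.37.

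The single labels showed less. For Tet2+/- against WT the log2 differences were 0.31 for Cybb (SE 0.86), 0.14 for Cyba (SE 0.59), -0.26 for Ncf1 (SE 0.59), 0.63 for Ncf4 (SE 0.73) and 0.10 for Rac2 (SE 0.37), all within 1 SE of 0. With the libraries numbered 3 left out they were 0.33 (SE 0.33), 0.24 (SE 0.24), -0.18 (SE 0.30), 0.65 (SE 0.32) and 0.21 (SE 0.21) in the same order, so that Ncf4 lay furthest from 0 (edgeR adjusted p = 0.742). The sign changed with 1 library left out for Cybb and Rac2 (WT replicate 3 or Tet2+/- replicate 1, for Rac2 also Tet2+/- replicate 2), Cyba (WT replicate 3 or Tet2+/- replicate 2) and Ncf1 (WT replicate 2 or Tet2+/- replicate 3). Cybb then ran from -0.34 to 0.83, Cyba from -0.33 to 0.60, Ncf1 from -0.80 to 0.18 and Rac2 from -0.12 to 0.43, while Ncf4 stayed above 0, from 0.18 to 1.11. By edgeR 0 of 5 were called (background 0.0256%), 0 had an unadjusted p under 0.05 (2.12% of all genes) and DESeq2 called 0 (background 0.229%). Ncf4 was the member higher in Tet2+/- within each library number, at log2 differences of 0.60, 0.69 and 0.39. The share of all genes with this pattern was not read, so it describes 1 member of 5 and is no support for a difference. For Ins2Akita/+ against WT the log2 differences were 0.60, 0.27, 0.45, 0.42 and 0.26 in the order Cybb, Cyba, Ncf1, Ncf4 and Rac2, with SEs of 0.42 to 0.95. No member and no gene at all was called there by edgeR or DESeq2 (background 0%), and 67 genes (0.429%), no member among them, had an unadjusted p under 0.05 by edgeR. Without the libraries numbered 3 the Ins2Akita/+ differences were 0.10, -0.09, 0.09, -0.04 and 0.04, so none then lay 1 SE from 0. With the block they ran from -2.26e-04 for Cyba to 0.27 for Cybb.

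**Figure D3:**
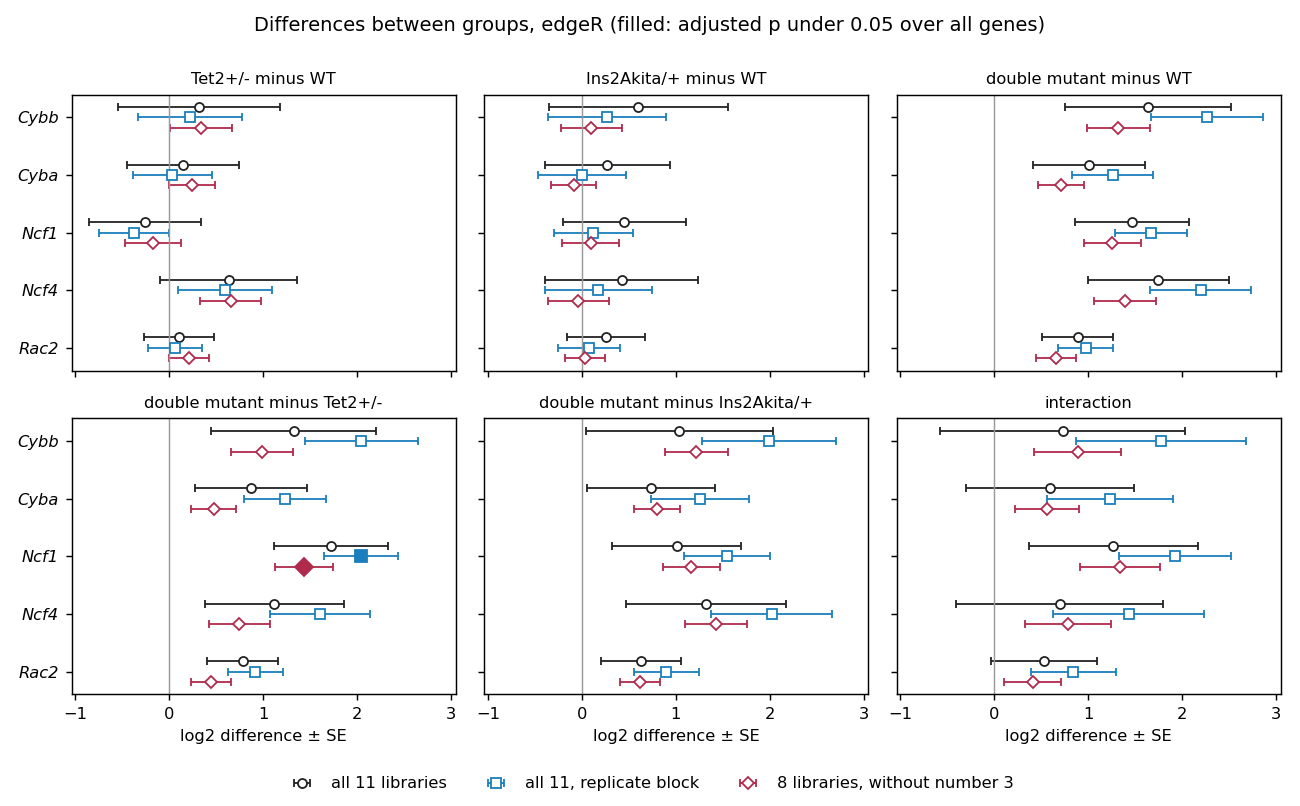
Log2 differences ± SE of the 5 genes in the 6 edgeR comparisons, with all 11 libraries, with the replicate number as a block and without the libraries numbered 3. The 2 filled markers, both Ncf1 in double mutant against Tet2+/-, are the calls at adjusted p under 0.05.

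Whether the Ins2Akita/+ difference was larger beside the Tet2+/- label was tested as an interaction, the double mutant minus Tet2+/- difference less the Ins2Akita/+ minus WT difference. It was above 0 for all 5 genes, as for 48.3% of all genes. The values were 0.73 for Cybb (SE 1.30), 0.59 for Cyba (SE 0.90), 1.27 for Ncf1 (SE 0.90), 0.69 for Ncf4 (SE 1.10) and 0.52 for Rac2 (SE 0.56), each with edgeR adjusted p = 1. By edgeR 0 of 5 were called (background 0%) and 0 had an unadjusted p under 0.05 (3.44% of all genes), and DESeq2 called 0 (background 0.335%). Ncf1 had an unadjusted p under 0.05 with the replicate block (1.92, SE 0.60, edgeR adjusted p = 0.402), where 5.65% of all genes were higher at that level. It had one also without the libraries numbered 3 (1.34, SE 0.43, edgeR adjusted p = 0.234), where 7.02% were. The 4 other genes ran from 0.84 to 1.77 with the block and from 0.41 to 0.89 without number 3. With single libraries left out Cybb ran from 0.21 to 1.38, Cyba from 0.14 to 1.06, Ncf1 from 0.83 to 1.81, Ncf4 from 0.21 to 1.15 and Rac2 from 0.20 to 0.84. The double mutant is thus not shown to exceed the sum of the single-label differences for any of the 5 genes.

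Within library numbers, all 5 genes were higher in the double mutant than in WT in 3 of 3 numbers, as were 22.2% of all genes. This direction follows from every double mutant library lying above every WT and Tet2+/- library, so it adds no support. The sizes of the differences are what is read here. Cybb differed by log2 1.29, 1.34 and 3.69 in numbers 1 to 3, Ncf4 by 0.88, 1.75 and 3.49, and Ncf1 by 1.04, 1.41 and 2.30. Cyba differed by 0.51, 0.88 and 2.08 and Rac2 by 0.48, 0.79 and 1.49. Number 3 held the widest difference for each gene. Against Tet2+/- all 5 genes were, for the same reason, higher in 3 of 3 numbers (20% of all genes). The differences ran from 0.21 for Rac2 in number 1 to 3.75 for Cybb in number 3.

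**Figure D4:**
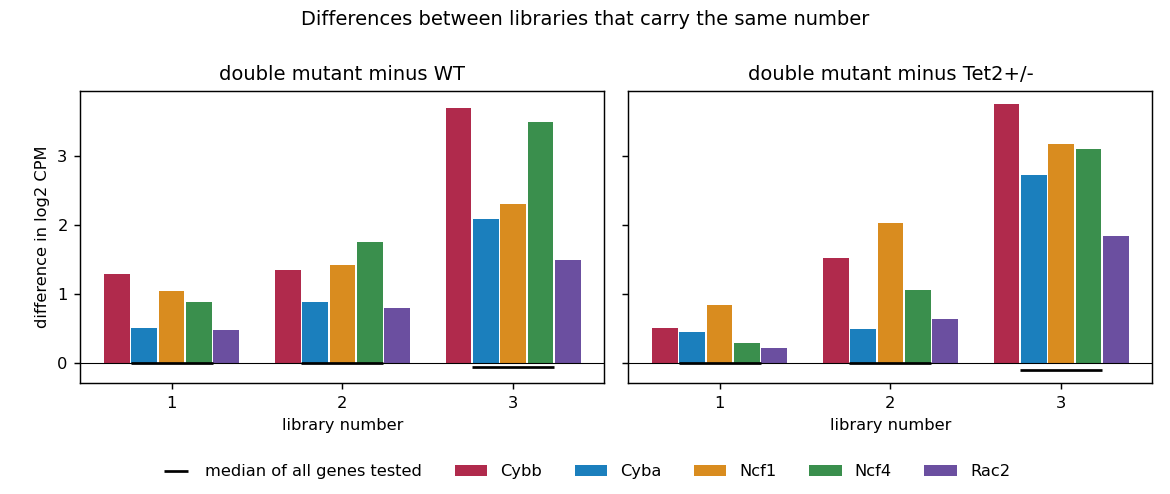
Differences in log2 CPM between libraries of the same number, double mutant minus WT and double mutant minus Tet2+/-, with a bar per gene and a black line at the median of all genes tested. Every bar is above 0, which follows from the double mutant libraries being the highest 3 for each gene. Number 3 holds the tallest bar of each gene, up to 3.69 and 3.75 for Cybb.

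The libraries numbered 3 were low in these genes in WT and Tet2+/-. In the double mutant number 3 was less far below, and nearly level for Rac2. Cybb in number 3 was 7.97-fold below the mean of numbers 1 and 2 in WT and 10.2-fold below it in Tet2+/-, and 1.53-fold below it in the double mutant. Ncf4 was 5.45-fold, 6.52-fold and 1.21-fold lower, and Ncf1 was 2.96-fold, 4.68-fold and 1.41-fold lower. Rac2 was 1.75-fold and 2.57-fold lower in WT and Tet2+/-, with a log2 difference of 0.05 in the double mutant. The median over all genes tested was at 0.01 to 0.02 on the log2 scale in these 3 groups. The labels do not say what a library number marks.

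Genes of maturing neutrophils were, as a sum, also highest in the 3 double mutant libraries and lowest in number 3 of WT and Tet2+/-. The list of 16 genes, led by S100a9, Ngp and S100a8, summed to 2247 to 24677 CPM in WT, 3101 to 30570 CPM in Tet2+/-, 16867 to 32283 CPM in Ins2Akita/+ and 49418 to 74801 CPM in the double mutant. No gene of the list was at 0 in any library, and the lowest sums in WT and Tet2+/- were those of number 3. All 16 were above 0 in double mutant against WT (median log2 difference 2.16, against 1.46 for the oxidase genes), and 0 of 16 were called by edgeR (background 0.0448%). Called higher were 7 of 16 by DESeq2 (background 2.25%), 3 with the replicate block (1.63%) and 6 without the libraries numbered 3 (3.44%). These backgrounds count calls in either direction. Against Tet2+/- 1 of 16 was called higher by edgeR (background 0.262%), Mmp25, a membrane-bound matrix metalloproteinase (3.74, SE 0.60, edgeR adjusted p = 0.046). Their part in the oxidase differences was not tested. In bulk RNA, more cells of a type and more RNA per cell cannot be told apart.

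The 5 oxidase genes together made up 7.52%, 8.19% and 30.1% of the maturing neutrophil sum in WT and 8.29%, 6.78% and 16.7% in Tet2+/-. They made up 7.50% and 8.85% in Ins2Akita/+ and 6.49%, 6.12% and 4.80% in the double mutant. Relative to these markers the double mutant libraries were therefore the lowest 3 of the 11, and the WT and Tet2+/- libraries numbered 3 the highest. In the 8 other libraries than those numbered 3 the share kept between 6.12% and 8.85%, while the maturing neutrophil sum itself differed from 16867 to 74801 CPM. Against other lists the order was another. Set against the monocyte and macrophage sum, the oxidase sum was 132% to 213% in WT, 216% to 349% in Tet2+/-, 230% to 248% in Ins2Akita/+ and 277% to 656% in the double mutant, where it lay above WT and Ins2Akita/+. Against the primary granule sum it was 15.02% to 34.1% in WT, 20.6% to 56.7% in Tet2+/-, 14.3% to 17.9% in Ins2Akita/+ and 22.0% to 33.1% in the double mutant, which overlapped WT and Tet2+/-.

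**Figure D5:**
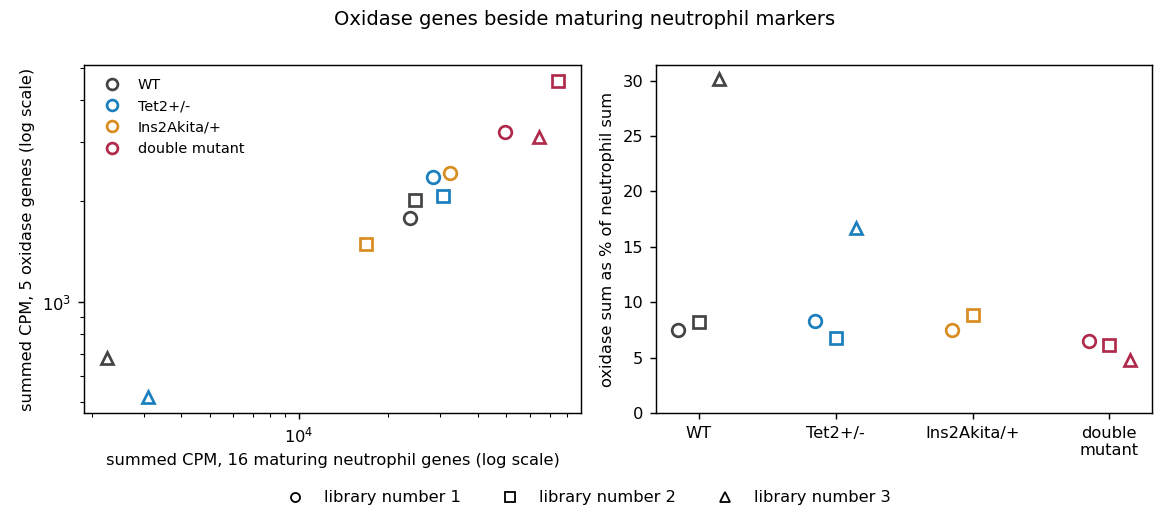
Left, summed CPM of the 5 oxidase genes against summed CPM of 16 maturing neutrophil genes (both axes log) for each library. Right, the oxidase sum as a percent of the neutrophil sum, which lies at 4.80% to 6.49% in the double mutant and at 30.1% and 16.7% in WT and Tet2+/- number 3.

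Markers of other cell types were read in the same way. The primary granule list of early neutrophil precursors (8 genes, led by Mpo, Elane and Prtn3) summed to 1986 to 13456 CPM in WT, 914 to 11438 CPM in Tet2+/-, 10464 to 13530 CPM in Ins2Akita/+ and 9362 to 16885 CPM in the double mutant. The monocyte and macrophage list (12 genes, led by Ly6c2, F13a1 and Csf1r) summed to 512 to 971, 149 to 1089, 648 to 975 and 473 to 1248 CPM in these groups. For both lists the double mutant range overlapped that of WT, and no gene was at 0 in any library. By gene, 8 of 8 primary granule and 4 of 12 monocyte and macrophage genes were above 0 in double mutant against WT (44.1% of all genes). The dendritic cell list (10 genes, led by Tcf4, Bst2 and Flt3) summed to 387 to 489 CPM in WT, 303 to 739 CPM in Tet2+/-, 404 to 435 CPM in Ins2Akita/+ and 205 to 229 CPM in the double mutant. The B lineage list (9 genes, led by Cd79a, Cd79b and Blnk) summed to 135 to 197, 167 to 349.9, 171 to 177 and 56.9 to 73 CPM. The B lineage and dendritic sums were thus lowest in the double mutant, where the oxidase genes were highest. Against Tet2+/- 4 of 9 B lineage genes (Igll1, Ebf1, Pax5 and Vpreb1) were called lower by edgeR (background 0.262%), with log2 differences of -4.03 to -3.03 and adjusted p from 0.0259 to 0.0384. Against WT 0 of 9 were (0.0448% of all genes called in either direction). The count was 5 with the replicate block (1.63%) and 6 without the libraries numbered 3 (3.44%). The T and NK cell list (10 genes) summed to 131 to 345, 121 to 404, 275 to 302 and 151 to 210 CPM. The erythroid list (12 genes) summed to 952 to 5035, 1368 to 8590, 902 to 2688 and 439 to 2623 CPM. These ranges overlapped between double mutant and WT. Nkg7, also a primary granule list gene, led the T and NK cell sum, at 96.7 to 151 CPM in the double mutant. By gene, 3 of 10 T and NK cell genes were above 0 in double mutant against WT (median log2 difference -1.05). Of these 10, 6 had an unadjusted edgeR p under 0.05 (8.79% of all genes), so the overlapping sums do not show these genes as level. Nor do they for the erythroid list. Of its 12 genes, 0 were above 0 in double mutant against WT (44.1% of all genes), with a median of -0.85. None of the 12 had an unadjusted edgeR p under 0.05. No gene of these 4 lists was at 0 CPM in any library, and the part of any of them in the result was not tested.

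The rest of the oxidase pathway was read from 5 further lists, and by edgeR with all 11 libraries 0 of their genes were called in any of the 6 comparisons. The oxidase complex and its partners had 14 genes tested, of which 14 were above 0 in double mutant against WT, with a median of 0.37. The genes of smallest p in this list were Pak2, a kinase downstream of Rac (0.43, SE 0.19, adjusted p = 0.546), Vav1, an exchange factor that loads Rac with GTP (0.58, SE 0.31, adjusted p = 0.682), and Arhgdib, which holds Rac GTPases inactive in the cytosol (1.01, SE 0.64, adjusted p = 0.766). P2ry2, a receptor for extracellular nucleotides, was the gene of this list called in other fits. It was called higher without the libraries numbered 3 in the double mutant against WT (0.95, edgeR adjusted p = 0.0319), Tet2+/- (1.20, adjusted p = 0.0089) and Ins2Akita/+ (1.14, adjusted p = 0.0222). With the replicate block it was called against Tet2+/- (1.77, edgeR adjusted p = 0.0303). Over 16 alternatives its adjusted p reached 0.999, 0.915 and 1 in these 3 comparisons.

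The NADPH supply list, of pentose phosphate enzymes and other enzymes of NADPH metabolism, had 10 of 12 genes above 0 in double mutant against WT. Their median log2 difference was 0.55. G6pdx, the first enzyme of the pentose phosphate pathway, had 128 ± 19.7 CPM in WT and 419 ± 146 CPM in the double mutant, SD with n = 3 each (log2 difference 1.71, SE 0.33, edgeR adjusted p = 0.104). It was called higher with the replicate number as a block (1.72, edgeR adjusted p = 0.0466) and by DESeq2 (1.73, adjusted p = 2.51e-04), in a range of up to 0.432 over 16 alternatives. Nadk, which makes NADP from NAD, was at 144 ± 25.4 and 278 ± 69.6 CPM in WT and double mutant (SD, n = 3 each; log2 difference 0.95, edgeR adjusted p = 0.317). Tkt, a transketolase, was at 1006 ± 87.7 and 1434 ± 176 CPM (0.51, adjusted p = 0.411). Against Tet2+/-, G6pdx, H6pd, Pgd and Nadk were called higher with the replicate block, with edgeR adjusted p from 0.0385 to 0.0499 (2.83% of all genes were called higher). H6pd was called also without the libraries numbered 3 (1.42, edgeR adjusted p = 0.0397) and G6pdx, Pgd and Nadk were not (3.88% of all genes). DESeq2 called G6pdx against Tet2+/- (1.51, adjusted p = 0.00249) and Ins2Akita/+ (1.49, adjusted p = 0.0221). Against Tet2+/- the adjusted p over 16 alternatives reached 0.386 for G6pdx, 0.672 for H6pd, 0.879 for Pgd and 0.803 for Nadk.

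The antioxidant list, whose products remove superoxide and peroxide, was split, with 8 of 20 genes above 0 and a median of -0.09 in double mutant against WT. Txn1, a thioredoxin, had a log2 difference of 0.62 (SE 0.20, edgeR adjusted p = 0.331) and Gclc, of glutathione synthesis, one of -0.88 (SE 0.41, adjusted p = 0.594). Calls in this list came without the libraries numbered 3. Sod2, the mitochondrial superoxide dismutase, was then called higher in the double mutant against WT (0.64, edgeR adjusted p = 0.0425) and Ins2Akita/+ (0.71, adjusted p = 0.0337). Hmox1, a haem oxygenase, was called higher against Tet2+/- (0.89, edgeR adjusted p = 0.0171) and Ins2Akita/+ (0.82, adjusted p = 0.0388). Nfe2l2, a factor of the antioxidant response, was called higher against Tet2+/- (0.61, edgeR adjusted p = 0.0452), and Gclc lower against Ins2Akita/+ (-0.88, adjusted p = 0.0479). Over 16 alternatives the adjusted p of these 6 calls reached 0.913 to 1. Of 9 genes of other NADPH oxidases, 1 passed the filter on low counts, Noxo1, with 1.21 ± 0.39 CPM in WT and 1.75 ± 0.315 CPM in the double mutant, SD with n = 3 each.

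Of the 14 regulators of oxidase gene transcription, 9 were above 0 in double mutant against WT (median 0.27). Irf8, a transcription factor of monocyte and dendritic cell fate that also acts on Cybb, had levels of 239 ± 106 CPM in WT, 206 ± 42.6 in Tet2+/-, 157 ± 20.3 in Ins2Akita/+ and 79.6 ± 15 in the double mutant, SD with n = 3, 3, 2 and 3. Its log2 difference between double mutant and WT was -1.58 (SE 0.32, edgeR adjusted p = 0.117), and it was called lower by DESeq2 (adjusted p = 0.00117) and in edgeR with number 3 left out (-1.01, adjusted p = 0.0191), with up to 0.339 over 16 alternatives. Cebpe, a factor of late granulocyte maturation, was at 46.3 ± 32 CPM in WT and 121 ± 37.2 CPM in the double mutant (SD, n = 3 each; edgeR adjusted p = 0.755), and was called higher without the libraries numbered 3 (1.09, edgeR adjusted p = 0.0445, with up to 0.999 over 16 alternatives). Cebpb, of emergency granulopoiesis, had a log2 difference of 1.03 (SE 0.50, edgeR adjusted p = 0.615). Irf8 was also called lower without the libraries numbered 3 against Tet2+/- (-1.36, edgeR adjusted p = 0.0052) and Ins2Akita/+ (-0.83, adjusted p = 0.0329). Spi1, which encodes PU.1, was then called higher against both (0.71 and 0.83, edgeR adjusted p = 0.0473 and 0.0484), Cebpe against Tet2+/- (1.20, adjusted p = 0.0205) and Cebpb against Ins2Akita/+ (0.93, adjusted p = 0.0439). DESeq2 called Hoxa9, a homeobox factor of progenitors, higher against Tet2+/- (1.18, adjusted p = 0.0184) and Irf8 lower (-1.36, adjusted p = 0.00687), as did the block for Irf8 (-1.37, edgeR adjusted p = 0.0471). Over 16 alternatives the adjusted p of the calls against Tet2+/- and Ins2Akita/+ reached 0.386 (Irf8 against Tet2+/-) to 1.

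The 5 genes tracked each other across the libraries. Over 11 libraries, Pearson r of log2 CPM between members ran from 0.914 (Ncf1 and Ncf4) to 0.975 (Cyba and Rac2). Without the libraries numbered 3 it ran from 0.742 (Cyba and Ncf1) to 0.965 (Ncf4 and Rac2) over 8 libraries. The points share their library, its depth and its cell composition, and the group means are part of the relation, so these values are descriptions. In the smaller set Cyba, Ncf4 and Rac2 lay at 0.956 to 0.965 with each other. Cybb lay at 0.943 with Rac2, 0.931 with Ncf1, 0.875 with Ncf4 and 0.837 with Cyba.

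Among 10088 genes with a mean of at least 5 CPM, those most like each member over the same 11 libraries were read next. For Cybb they were Vsir, a checkpoint receptor of myeloid cells (r = 0.994, and 0.973 over the 8 libraries without number 3), Slco4c1 (0.994) and Clec5a, a lectin receptor of myeloid cells (0.994). For Cyba they were Arhgdib (r = 0.997, 0.982 over 8), Cdkn2d (0.993) and Dhrs7 (0.992). For Ncf1 they were Pld1, a phospholipase D (r = 0.994, 0.992 over 8), Cln3 (0.994) and Ly75 (0.993). For Ncf4 they were AI839979 (r = 0.990, 0.962 over 8), the peroxiredoxin Prdx5 (0.989) and the neutrophil protein S100a9 (0.989). For Rac2 they were Aldh3b1 (r = 0.997, 0.988 over 8), Ppm1m (0.996) and Ano10 (0.996). For the mean of the 5 genes they were Msrb1 (r = 0.996, 0.986 over 8), Mgst1, S100a1, Pilrb2 and Anxa1, with r of 0.994 to 0.996. Spearman rho was 0.955 to 1 for these genes, and as the top of 10088 candidates these values are high by selection.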

How the data were processed

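The authors deposited raw counts, whole numbers of reads for each gene and library, in 1 table, per the file header. The submitters' processing notes name bcl2fastq, TopHat2 2.1.1, Trimmomatic 0.32 and build GRCm38. Which program counted reads, on which annotation and whether by strand is not given in the sources used here. Gene names came from GENCODE, matched for 30875 of 31060 identifiers without their version (25042 with it). Of 12 labelled samples 11 have a column. Double mutant sample 4 was not analysed here, and 1 column that matches no label was not used. The members and all gene lists were chosen with earlier results of these data known.

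Counts were tested in R 4.3.3 with edgeR 4.0.16: filterByExpr (15630 genes), TMM factors, 1 fit of 4 groups, glmQLFit with robust=TRUE, glmQLFTest and Benjamini-Hochberg adjusted p under 0.05 over all genes. SE is the log2 difference over the square root of F. CPM values use library sizes scaled by TMM factors. A count of 3, the limit that 0 counts allow, is 0.133 to 0.203 CPM, for counting error only. Alternatives were RLE factors, DESeq2 1.42.0, no low count filter, the replicate number as a block, leaving out all libraries numbered 3 and leaving out each library. The fit was tested on simulated data. Replicates all differed by more than counting noise (chi-square per gene at least 15.6).

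Named genes were the 5 members, Tet2, up to 3 genes of smallest p per pathway list and comparison or those called, up to 3 genes of highest mean CPM per marker list, and the 3 (for the mean of the 5, the 5) genes of highest r, other than symbols of the Gm and Rik series. Log2 CPM for r used a prior count of 2. H6pd, Pgd, P2ry2, Nfe2l2, Spi1, Mmp25 and 4 B lineage genes were named for calls, after their values were seen. A gene of 1 pathway list and 1 of a marker list are not reported here. The labels number the replicates without saying what a number marks. Deviations of same-numbered libraries from their group means correlated at 0.318 to 0.791 among WT, Tet2+/- and the double mutant. All were over 0.1, so numbers were treated as pairing these groups in the block fit and in the differences within library numbers. The main fit used no block, so its p-values do not use the numbers. Deviations cancel within a group and number 3 stood apart in each, which by itself can make numbers 1 and 2 correlate. The rule therefore cannot show that numbers 1 and 2 pair anything, and differently numbered libraries were not compared. Ins2Akita/+ did not meet this rule (-0.351 and 0.0661 with WT) but entered the same block fit.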

Additional observations from a re-analysis of the deposited data

How the results depend on the processing

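Counts of oxidase genes called, 0 of 5 in each of 6 comparisons, stayed at 0 with RLE factors, DESeq2, no low count filter and every single library left out. With the replicate block 1 gene (Ncf1) and without the libraries numbered 3 also 1 gene (Ncf1) was called in double mutant against Tet2+/-, and none in the other 5 comparisons. Of the members' log2 differences under all settings, 478 kept their side of the threshold, 2 (Ncf1) passed it and none reversed beyond 1 SE.

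Over all genes, calls in Tet2+/- against WT were 4, and 43 by DESeq2, 8 with the replicate block, 22 without number 3 and 1 to 7 with single libraries left out (1 without any WT library, 7 without replicate 3 of Tet2+/- or of the double mutant). In double mutant against WT they were 7, and 383 by DESeq2, 52 with no low count filter, 255 with the replicate block, 519 without number 3 and 1 to 49 with single libraries left out (49 without Tet2+/- replicate 3, 21 without double mutant replicate 1, 11 without Tet2+/- replicate 2, 4 without Tet2+/- replicate 1, 2 without double mutant replicate 3, 1 without any WT library). In double mutant against Tet2+/- they were 41, and 502, 86, 703 and 1163 in the same order, and 0 to 66 (66 without Tet2+/- replicate 3, 0 to 8 without any other single library except WT replicate 3). In double mutant against Ins2Akita/+ they were 6, and 182, 20, 18 and 436, and 0 to 11 (11 without Tet2+/- replicate 3, 0 or 1 without any WT or Ins2Akita/+ library or double mutant replicate 2 or 3). For the interaction they were 0, and 53, 3, 3 and 7, and 0 with single libraries left out. Genes called in the pathway lists, 0 at first, were 2, 2, 1 and 4 in double mutant against WT by DESeq2, with no low count filter, with the replicate block and without number 3. They were 3, 1, 6 and 7 against Tet2+/-, and 1 by DESeq2 and 7 without number 3 against Ins2Akita/+, with 0 under every single library left out. The cause was not tested. In the replicate block the member differences moved by over 1.5 times for Cybb against Tet2+/- (2.04) and, against Ins2Akita/+, for Cybb (1.995), Cyba (1.26), Ncf1 (1.54) and Ncf4 (2.02). In the order Cybb, Cyba, Ncf1, Ncf4 and Rac2 it moved the interaction to 1.77, 1.23, 1.92, 1.43 and 0.84 and Ins2Akita/+ against WT to 0.27, -2.26e-04, 0.12, 0.18 and 0.08, and in Tet2+/- against WT it moved Cyba (0.03) and Rac2 (0.06). Cyba against Tet2+/- was 1.34 without Tet2+/- replicate 2. The block changed no other member's call. Member SEs were 0.37 to 1.30 with all libraries, 0.29 to 0.90 with the block and 0.21 to 0.47 without number 3.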
